A study of Mus musculus with 15 samples.

Results

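The GATA transcription factors Gata1, Gata2, Gata3, Gata4, Gata5 and Gata6 were followed in mouse embryonic stem (ES) cells and embryoid bodies with and without KD33, a hairpin against Cbx7. Every non-control probe whose gene name equals one of the 6 symbols was taken, which gave 1 probe per gene, so 6 of the 30905 gene names and 6 of the 39429 probes of the array. All 6 passed the filter on dim probes and lay well above background on all 15 arrays, and none was saturated. The groups were KD33 EB9 (4 arrays), control EB9 (4), KD33 ES cells (4) and control ES cells (3), all of mouse cells and named biological replicates. EB9 is the submitters' name for embryoid bodies, the aggregates in which ES cells differentiate. The labels call the KD33 samples Cbx7 depleted and name this hairpin alone, and the series' design text calls the ES control shCtr. The labels give no strain, no age of the embryoid bodies and no hairpin for the EB9 control, and they enter the treatment of both controls as none. Levels below are log2 processed signals minus the 75th percentile of the array, here called relative signals, so 0 is the signal of the 75th percentile probe.

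GATA factors are zinc finger proteins that bind DNA at GATA motifs and set cell fate. Gata1, Gata2 and Gata3 act chiefly in blood, and Gata2 and Gata3 also in trophoblast and surface ectoderm. Gata4, Gata5 and Gata6 act in endoderm and heart, and Gata6 and Gata4 drive ES cells into primitive endoderm. Several GATA genes start in CpG islands that Polycomb complexes occupy in ES cells, and Cbx7 is the main chromodomain subunit of Polycomb repressive complex 1 there.

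The share of features well above background was 62.5% to 69.0% per array, except for EB9 control 2 with 75.4%. One of the 2 Cbx7 probes (A_55_P1980401) had relative signals of −7.85, −4.44, −4.61 and −7.37 in KD33 ES cells 1 to 4, against −6.30, −3.14 and −3.04 in ES controls 2, 3 and 4. It was not well above background on KD33 ES arrays 1 and 4, nor on arrays 1 and 4 of either EB9 group. Its fitted difference in ES cells was −1.91 (SE 1.23, adjusted p = 0.256), and −1.41 (SE 0.17, adjusted p = 0.0001) with the slide as a block, and it was lower under KD33 on each of the 3 slides that held both groups. In EB9 it differed by −0.27 (adjusted p = 0.920, and 0.221 with the slide block). It was −8.47, −5.78, −5.92 and −8.57 in KD33 EB9 1 to 4, against −8.16, −5.42, −5.40 and −8.69 in control EB9 1 to 4. It was thus lower under KD33 on slides 1, 2 and 3 and higher on slide 4. The other probe (A_55_P1980408) differed by −0.16 in EB9 and by −0.13 in ES cells, and did not pass in either with or without the slide block (adjusted p = 0.360 to 0.868). In EB9 it too was lower under KD33 on slides 1, 2 and 3 and higher on slide 4. A lower Cbx7 level thus did not pass the test in EB9 labelled KD33. In ES cells it passed for 1 of 2 probes and in the slide-blocked fit alone, so samples are named here by their hairpin label. The summed relative level of 7 ES cell markers was 5.0 to 7.1 in EB9 and 171.0 to 209.1 in ES cells, in multiples of the 75th percentile. Under KD33 that sum was 6.1 to 7.1 against 5.0 to 6.6 in control EB9, with 3 of the 7 higher, and 171.0 to 190.4 against 194.6 to 209.1 in control ES cells, with 1 higher and 2 lower. For this and the next marker lists, 7.64% of all probes were higher and 6.49% lower under KD33 in EB9. In ES cells 21.9% were higher and 16.2% lower. Of 8 fibroblast markers, 7 were higher and 1 lower in EB9 than in ES cells, both under KD33 (34.2% and 43.9% of all probes) and in controls (33.7% and 41.2%). Against controls, 1 of them was lower under KD33 in EB9 and 1 in ES cells. Of 5 measured neural markers limma called 0 under KD33 in EB9 (1 at an unadjusted p under 0.05), and 3 were higher and 1 lower in ES cells, where their sum was 2.46 to 2.61 under KD33 and 2.69 to 3.21 in controls. The part of these cells in the results was not tested. Arrays of 1 slide deviated from their group means together, and since each group took its own position on the slides, the effects of position and of group cannot be told apart.

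The 60-base probes lie, in build mm9, on the minus strand of chromosome X (Gata1, 7536392 to 7536451), the plus strand of chromosome 6 (Gata2, 88156362 to 88156421), the minus strand of chromosome 2 (Gata3, 9779551 to 9779610, and Gata5, 180059867 to 180059926) and the minus strand of chromosome 14 (Gata4, 63817858 to 63817917). Exon or UTR annotation in that build was not used here. The first 30 bases of the probes that carry the results on Gata1 to Gata4 are shown, 5′ to 3′, because each gene was read by this one sequence alone. No letter is capitalised in these stretches. 
Gata1 probe A_55_P2046852: aataaaaccacctggagacatgcgctggta
Gata2 probe A_52_P233441: aactgcataagcttaacccgctgatgagtg
Gata3 probe A_66_P111011: ttaaggaatatagggggattaaagtatgga
Gata4 probe A_55_P2028894: tagcttcgaaccaagattctgttgtaatca

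The 250 bases upstream of the annotated start were read for Gata1, Gata2, Gata3 and Gata5 (RefSeq, GRCm38.p6). Gata4 and Gata6 were not matched. They are shown for Gata1 and for both Gata2 starts because Gata2 changed most under KD33 and Gata1 differs most from the others in CG content. Capitals mark CG dinucleotides, the sites where DNA methylation and CpG island binding proteins act. 
Gata1 (chrX:7967911-7968160, minus strand): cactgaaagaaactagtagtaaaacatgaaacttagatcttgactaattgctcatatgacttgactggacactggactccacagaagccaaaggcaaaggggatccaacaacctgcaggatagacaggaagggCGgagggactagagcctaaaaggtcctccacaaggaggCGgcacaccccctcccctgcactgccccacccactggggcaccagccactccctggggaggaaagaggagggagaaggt
Gata2, first start (chr6:88193641-88193890, plus strand): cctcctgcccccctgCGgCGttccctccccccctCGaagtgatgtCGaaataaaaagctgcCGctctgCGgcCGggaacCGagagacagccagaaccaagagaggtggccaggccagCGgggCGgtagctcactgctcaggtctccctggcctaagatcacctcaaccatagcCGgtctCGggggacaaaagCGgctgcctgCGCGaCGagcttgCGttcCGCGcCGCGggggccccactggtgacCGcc
Gata2, second start (chr6:88198414-88198663, plus strand): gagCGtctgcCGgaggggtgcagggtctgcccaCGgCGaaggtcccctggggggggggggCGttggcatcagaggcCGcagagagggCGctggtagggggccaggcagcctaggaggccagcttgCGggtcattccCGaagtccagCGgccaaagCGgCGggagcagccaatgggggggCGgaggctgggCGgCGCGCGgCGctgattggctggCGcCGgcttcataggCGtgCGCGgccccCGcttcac

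The Gata1 window held 2 CG dinucleotides, at the 18.8th percentile of 32851 promoters. Both Gata2 windows held more, 22 and 24 CG (85.2nd and 88.0th percentile), and Gata3 held 19 and Gata5 22, where the median promoter held 6. The motif GATAA, searched on both strands, was in none of the 5 windows and in 22.6% of all promoters.

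Samples with KD33 differed from controls in 1 GATA gene in EB9 and in 3 in ES cells. In EB9, Gata2 fell, and no other member passed the test, so 1 of 6 was called where 14.1% of all probes were. With the slide as a block Gata3 passed too, and 6934 of 27253 probes, against 3851 without the block. In ES cells, Gata2 and Gata4 rose and Gata3 fell, so 3 of 6 were called where 38.1% of all probes were, 21.9% higher and 16.2% lower. The KD33 difference itself differed between EB9 and ES cells for Gata2, Gata3 and Gata4, 3 of 6 members, where 28.9% of all probes did. The arrays of KD33 and control samples did not overlap for 1 of 6 members in EB9 (15.2% of all probes) and for 4 of 6 in ES cells (49.2%). These shares have only 6 genes behind them and are close to those of all probes.

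**Figure D1:**
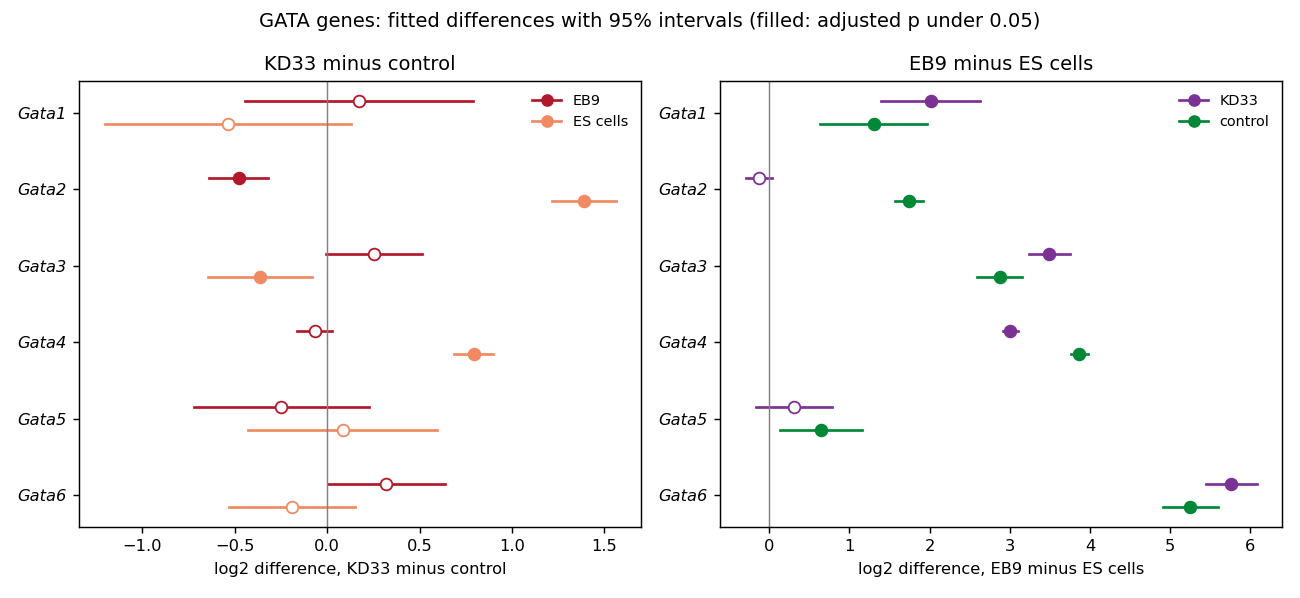
Fitted log2 differences of the 6 GATA probes with 95% intervals, as KD33 minus control in EB9 and in ES cells (left) and as EB9 minus ES cells in KD33 and in control samples (right); filled points passed an adjusted p under 0.05. Gata2 lies at −0.48 in EB9 and at 1.39 in ES cells on the left, and Gata6 lies furthest right, at 5.76 and 5.25.

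The GATA genes differed between EB9 and ES cells by up to 5.76 log2 units, and Gata6, Gata4 and Gata3 differed most. All 6 genes were called higher in EB9 than in ES cells among controls, where 33.7% of all probes were higher, 41.2% lower and 74.9% changed in either direction. The Gata5 call in controls (limma adjusted p = 0.0237) was lost with only those groups fitted and in 3 omissions of single arrays. Under KD33 4 of 6 were higher, with 34.2% of all probes higher, 43.9% lower and 78.2% changed. Gata2 and Gata5 did not pass there. EB9 and ES arrays did not overlap for 4 of 6 members under KD33 (74.4% of all probes) and for 5 of 6 in controls (73% of all probes). The median difference of all probes between EB9 and ES cells was −0.17 in KD33 and −0.13 in control samples on this scale, and −0.07 and −0.06 after quantile normalisation. In these bulk samples, fewer cells that express a gene and less RNA per cell cannot be told apart. The plot of each probe by array shows the values behind the following paragraphs.

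**Figure D2:**
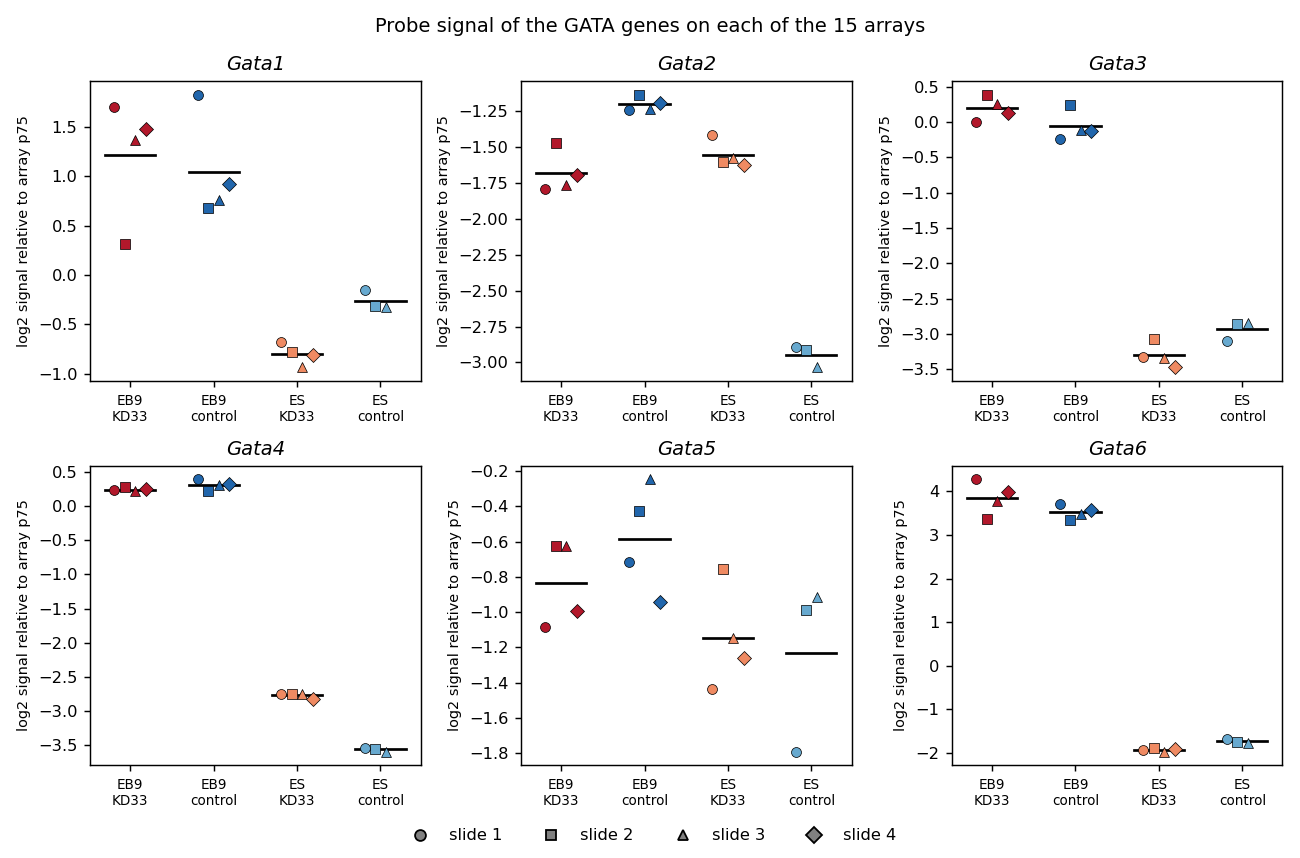
Relative log2 signal of each GATA probe on each of the 15 arrays, by group, with a bar at the group mean and the symbol giving the slide. Gata6 lies between 3.35 and 4.28 on the EB9 arrays and between −1.97 and −1.68 on the ES arrays, while the 4 groups of Gata5 overlap.

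Gata1 is the master regulator of red cell and megakaryocyte development. Its relative signals were 1.70, 0.32, 1.37 and 1.48 in KD33 EB9, 1.83, 0.67, 0.76 and 0.92 in control EB9, −0.68, −0.78, −0.93 and −0.81 in KD33 ES cells, and −0.15, −0.32 and −0.32 in control ES cells. Every EB9 array lay above every ES array, and the EB9 arrays spread over more than a log2 unit, with KD33 EB9 2 lowest. The group means were 1.22 ± 0.61 in KD33 EB9, 1.04 ± 0.53 in control EB9, −0.80 ± 0.11 in KD33 ES cells and −0.26 ± 0.10 in control ES cells (SD, n = 4, 4, 4 and 3). EB9 exceeded ES cells by 2.02 (SE 0.28, adjusted p = 1.96e-05) under KD33 and by 1.31 (SE 0.31, adjusted p = 0.00167) in controls. KD33 and control EB9 overlapped and differed by 0.17 (95% interval −0.45 to 0.79, adjusted p = 0.770). In ES cells the 2 groups did not overlap, and the difference of −0.54 (95% interval −1.20 to 0.13) did not pass in the model that shares its spread with EB9 (adjusted p = 0.198). It passed when only the ES arrays were fitted (adjusted p = 0.00188), and it was −0.52, −0.46 and −0.61 within slides 1, 2 and 3. The test of the difference between the EB9 and ES effects gave 0.71 (adjusted p = 0.242).

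Gata1 was set beside 16 red cell genes that it regulates, among them the globins, the haem enzyme Alas2 and its partner Klf1. Their summed relative level was 316.9, 139.5, 274.2 and 299.9 in KD33 EB9 1 to 4, against 322.7, 153.6, 173.5 and 181.4 in control EB9 1 to 4. The arrays ran in the same order for the sum and for Gata1, from KD33 EB9 2, the lowest, to control EB9 1, the highest. In ES cells the sum was 1.86 to 1.89 under KD33 and 2.56 to 2.69 in controls, without overlap. The sums of endoderm genes, of BMP and Nodal pathway genes, of ES cell markers and of neural markers were also lower there without overlap. Those of trophoblast and surface ectoderm genes and of fibroblast markers were higher without overlap. Of all probes, 49.2% did not overlap there. In EB9 against ES cells, 6 of the 16 red cell genes had no array well above background in the dimmer group, under KD33 and likewise in controls. Under KD33 15 of the 16 were higher in EB9 than in ES cells and none lower, where 34.2% and 43.9% of all probes were. The counts were the same in controls, where 33.7% and 41.2% of all probes were higher and lower. The embryonic globin Hbb-bh1 led, 12.40 log2 higher in KD33 and 12.07 in control samples. In the test of KD33 against control in EB9, limma called 0 of 16, with 1 at an unadjusted p under 0.05, although 15 of the 16 fitted differences were positive (median 0.32, against −0.01 for all probes). Without KD33 EB9 2, the array with the lowest sum, 7 of them were called higher, and calls were also made without control EB9 1 and with the slide as a block. Control EB9 2, on the same slide, had the lowest sum of the controls and was kept when KD33 EB9 2 was left out. The KD33 sum was below the control sum on slides 1 and 2 and above it on slides 3 and 4. All probes called also rose, from 3851 of 27253 to 5448 without KD33 EB9 2 and to 6934 with the slide block. In ES cells, Car2, a red cell carbonic anhydrase that other cells also make, was the only one called, at −0.78 (SE 0.21, adjusted p = 0.00967), and 4 were called lower when only the ES arrays were fitted.

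**Figure D3:**
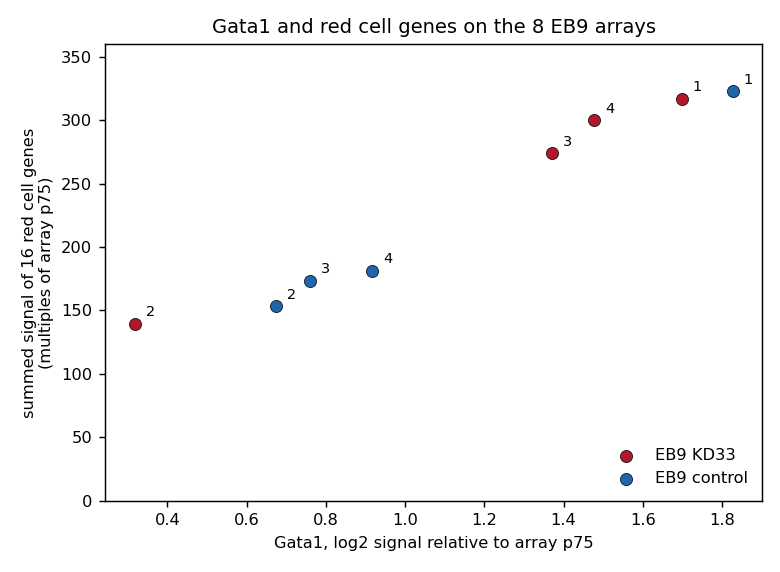
Relative log2 signal of Gata1 (horizontal) against the summed relative level of 16 red cell genes (vertical, multiples of the 75th percentile of the array) on the 8 EB9 arrays, numbered by replicate. Both measures are lowest in KD33 EB9 2, at 0.32 and 139.5, and highest in control EB9 1, at 1.83 and 322.7.

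Gata2 maintains blood stem and progenitor cells, acts in endothelium and is expressed in trophoblast. Its relative signals were −1.80, −1.47, −1.77 and −1.69 in KD33 EB9, −1.25, −1.14, −1.24 and −1.19 in control EB9, −1.42, −1.60, −1.58 and −1.63 in KD33 ES cells, and −2.89, −2.91 and −3.03 in control ES cells. The control ES arrays stood apart below all others, and KD33 EB9 and KD33 ES cells overlapped. The processed signal averaged 580 ± 81.1 in KD33 ES cells, against 271 ± 30.1 in control ES cells (SD, n = 4 and 3). In ES cells Gata2 rose 2.62-fold under KD33 (log2 1.39, SE 0.08, adjusted p = 9.46e-08), a larger change than 97.6% of all probes showed. The increase was 1.48, 1.31 and 1.46 within slides 1, 2 and 3.

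In EB9 Gata2 fell by 0.48 on the log2 scale under KD33 (SE 0.07, adjusted p = 0.00144), to 0.717 of the control EB9 level. The fall was −0.55, −0.34, −0.53 and −0.50 within slides 1 to 4, and the 2 groups did not overlap. The EB9 effect was thus below the ES effect by 1.87 (SE 0.11, adjusted p = 6.01e-07). Gata2 was 3.34-fold higher in control EB9 than in control ES cells (log2 1.74, SE 0.08, adjusted p = 1.98e-10). Under KD33 EB9 and ES cells differed by −0.13 (95% interval −0.29 to 0.03, adjusted p = 0.132). The order of the group means was control EB9 at −1.20, KD33 ES cells at −1.56, KD33 EB9 at −1.68 and control ES cells at −2.94, and only the middle pair overlapped.

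The 14 blood and endothelial progenitor genes linked to Gata2 included its partners Tal1 and Lmo2 and the pioneer factor Etv2. Under KD33 4 of 14 fell and 0 rose in EB9, against 6.49% and 7.64% of all probes. In ES cells 5 rose and 0 fell, against 21.9% and 16.2%, and 4 to 8 rose and 0 to 2 fell under the alternatives. Their medians were −0.22 in EB9 and 0.22 in ES cells, against −0.01 and 0.05 for all probes. In EB9 the greatest falls were those of Etv2, which specifies blood and endothelium from mesoderm (−0.99, SE 0.16, adjusted p = 0.00171), and Lmo2 (−0.46, SE 0.13, adjusted p = 0.0287). The Lmo2 call was lost without any 1 of 5 EB9 arrays, and fitted on EB9 arrays alone 1 gene of the list, Etv2, fell. In ES cells the transcriptional repressor Gfi1 rose by 1.85 (SE 0.11, adjusted p = 1.63e-07), with 2 of 3 control arrays well above background (0.61 with normexp), and Lmo2 by 0.93 (SE 0.14). The difference between the EB9 and ES effects passed for 6 of the 14, all lower in EB9, where 16.5% of all probes were, with Gfi1 at −2.15 (−0.83 with normexp) and Lmo2 at −1.39. The summed relative level of the list was 16.8 to 19.5 in KD33 and 19.3 to 21.7 in control EB9, and 5.7 to 6.5 in KD33 and 5.0 to 5.9 in control ES cells.

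Among 15 measured GATA cofactors and partners, 2 rose and 1 fell under KD33 in EB9, where 7.64% of all probes rose and 6.49% fell. In ES cells 6 rose and 2 fell, where 21.9% and 16.2% did. The EB9 counts were 0 to 3 in each direction under the alternatives, and the ES counts 4 to 6 and 1 to 3. In EB9 the risers were Trps1, an atypical GATA-type repressor (0.43, SE 0.08, adjusted p = 0.00542), and the acetyltransferase Ep300 (0.32, SE 0.09, adjusted p = 0.0327). The Ep300 and Trps1 calls were lost when only EB9 arrays were fitted, and that of Ep300 also with normexp or without any 1 of 6 EB9 arrays. Lmo2 was the gene that fell. In ES cells Tal1, which binds DNA with Gata1 and Gata2 in blood cells, rose by 0.91 (SE 0.15, adjusted p = 0.000359, and 0.51 with normexp). Zfpm2, the FOG cofactor of Gata4 in the heart, was at least 1.51-fold higher under KD33, since no control ES array lay well above background. The Tal1 relative Lyl1 fell by 0.59 (SE 0.14), a call lost with normexp, and Zfpm1, the FOG cofactor of Gata1, by 0.40 (SE 0.14, adjusted p = 0.0368), a call lost without any 1 of 6 ES arrays. In controls 11 of the 15 were higher and 3 lower in EB9 than in ES cells, where 33.7% and 41.2% of all probes were. Under KD33 the counts were 13 and 2, where 34.2% and 43.9% of all probes were higher and lower.

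Gata3 acts in T cells, trophoblast and surface epithelia. Its relative signals were 0.00, 0.39, 0.25 and 0.13 in KD33 EB9, −0.24, 0.24, −0.12 and −0.12 in control EB9, −3.33, −3.07, −3.34 and −3.47 in KD33 ES cells, and −3.10, −2.86 and −2.84 in control ES cells. EB9 and ES arrays stood well apart, while KD33 and control arrays overlapped in both. EB9 exceeded ES cells 11.3-fold under KD33 (log2 3.49, SE 0.12, adjusted p = 9.07e-12) and 7.34-fold in controls (log2 2.87, SE 0.13, adjusted p = 1.69e-10). The fitted effects of KD33 had opposite signs in EB9 and ES cells. In EB9 the difference was 0.25 (95% interval −0.01 to 0.51, adjusted p = 0.190), and it passed with the slide as a block (adjusted p = 0.0196). Within slides 1 to 4 it was 0.24, 0.15, 0.37 and 0.26. In ES cells Gata3 fell by 0.37 (SE 0.13, adjusted p = 0.0408), and by 0.23, 0.20 and 0.49 within slides 1, 2 and 3. That call was lost without any 1 of 9 arrays and with normexp background correction (adjusted p = 0.229). The EB9 effect exceeded the ES effect by 0.62 (SE 0.18, adjusted p = 0.0186), a call lost with normexp background correction (0.52).

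Of 14 trophoblast and surface ectoderm genes linked to Gata2 and Gata3, 1 rose and 3 fell under KD33 in EB9, where 7.64% of all probes rose and 6.49% fell, and 5 rose and 2 fell in ES cells, where 21.9% and 16.2% did. The T-box factor Eomes fell in both, by 0.89 (SE 0.11) in EB9 and by 1.13 (SE 0.12) in ES cells. In EB9 Ascl2 rose by 0.41 (SE 0.08) and Tfap2a, a surface ectoderm factor, fell by 0.87 (SE 0.23). Fitted on EB9 arrays alone, neither of these passed, and the Tfap2a call was also lost without any 1 of 4 EB9 arrays. In ES cells Cdx2, which specifies trophectoderm in the embryo, rose by 1.03 (SE 0.21, adjusted p = 0.00207) and the keratin Krt18 by 0.50 (SE 0.12). Elf5, a trophoblast stem cell factor, fell by 1.10 (SE 0.30, and by 0.33 with normexp), with 2 of 4 KD33 arrays well above background. Between EB9 and ES cells, the mesoderm and trophoblast factor Hand1 was higher by 6.17 under KD33 and by 6.95 in controls, and Tfap2c was lower by 2.57 and 2.30 log2 units. The list as a whole was split, with 6 higher and 5 lower under KD33 (34.2% and 43.9% of all probes) and 5 and 4 in controls (33.7% and 41.2%).

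Gata4 acts in primitive and visceral endoderm and in heart. Its relative signals were 0.23, 0.28, 0.21 and 0.24 in KD33 EB9, 0.39, 0.22, 0.31 and 0.32 in control EB9, −2.75, −2.75, −2.74 and −2.82 in KD33 ES cells, and −3.54, −3.55 and −3.59 in control ES cells. The SDs were 0.03 in KD33 EB9, 0.07 in control EB9, 0.04 in KD33 ES cells and 0.03 in control ES cells. In ES cells every KD33 array lay above every control, and Gata4 rose 1.73-fold (log2 0.79, SE 0.05, adjusted p = 1.59e-07). The increase was 0.79, 0.80 and 0.85 within slides 1, 2 and 3. In EB9 the groups overlapped, with a difference of −0.07 (95% interval −0.17 to 0.03, adjusted p = 0.362). The EB9 effect was below the ES effect by 0.86 (SE 0.07, adjusted p = 3.54e-06). Gata4 was 8.04-fold higher in EB9 than in ES cells under KD33 (log2 3.01, adjusted p = 6.93e-15) and 14.6-fold in controls (log2 3.87, adjusted p = 2.01e-15).

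**Figure D4:**
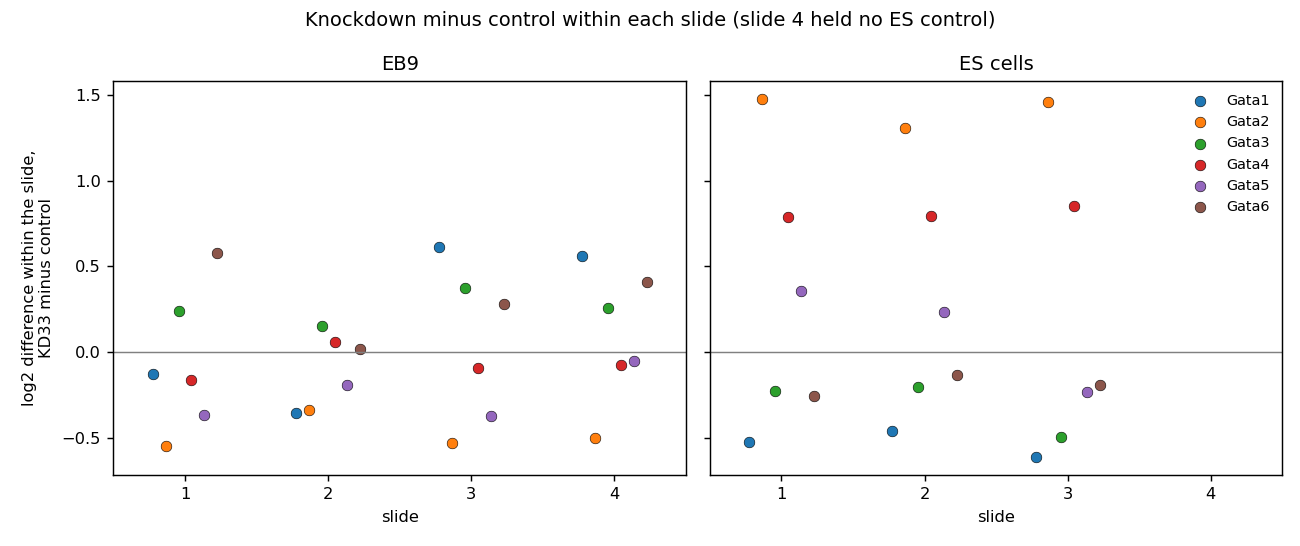
Differences of relative log2 signal, KD33 minus control, within each slide for EB9 (left) and ES cells (right). In ES cells Gata2 lies between 1.31 and 1.48 and Gata4 between 0.79 and 0.85 on the 3 slides that held both groups, and in EB9 Gata2 lies below 0 on all 4 slides.

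Gata5 acts in heart and endoderm. Its relative signals were −1.09, −0.62, −0.62 and −1.0 in KD33 EB9, −0.72, −0.43, −0.25 and −0.94 in control EB9, −1.44, −0.75, −1.15 and −1.26 in KD33 ES cells, and −1.79, −0.99 and −0.92 in control ES cells. All 4 groups overlapped with their neighbours in the order of the means, which ran from control EB9 at −0.58 through KD33 EB9 at −0.83 and KD33 ES cells at −1.15 to control ES cells at −1.23. In each group the arrays of slides 1 and 4 lay below those of slides 2 and 3. EB9 minus ES cells was 0.32 (SE 0.22, adjusted p = 0.202) under KD33 and 0.65 (SE 0.24, adjusted p = 0.0237) in controls. The call in controls was lost without ES control 2, EB9 control 2 or EB9 control 3. With the slide as a block the SE was 0.11 under KD33 and 0.12 in controls, and both differences passed (adjusted p = 0.0218 and 0.000312). KD33 minus control was −0.25 in EB9 (95% interval −0.72 to 0.22, adjusted p = 0.517) and 0.08 in ES cells (95% interval −0.43 to 0.60, adjusted p = 0.828).

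The sequence of the Gata5 probe sets it apart from the other members. It shares a word of 15 bases with 57 of the 32851 promoters, and 1.28% of the kept probes share one with as many or more. The probes of Gata1, Gata2, Gata3, Gata4 and Gata6 share one with 1, 0, 0, 1 and 5. A stretch of the Gata5 probe (bases 23 to 52) is shown beside the probes of the 3 genes whose signals followed it most closely over the 15 arrays, Lrrc19 (r = 0.980), Galns (r = 0.971) and Slc35e1 (r = 0.969). Capitals mark a run of CT repeats in Lrrc19 and letters known from the rodent B1 repeat in the others. 
Gata5 probe A_55_P2046867: tgtagctCTGGCTGTCCTGgaactcattat
Lrrc19 probe A_55_P2001023: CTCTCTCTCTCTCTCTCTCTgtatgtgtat
Galns probe A_55_P2108451: ttgggagtgctgGGATTAAAGGCGtgcgcc
Slc35e1 probe A_55_P2123220: ttctctgtgtagctagccCTGGCTGTCCTG

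The Lrrc19, Galns and Slc35e1 probes share a 15-base word with 103, 42 and 115 promoters. These words were chosen for display after the values were seen. The part that repeated sequence has in the Gata5 signal was not tested.

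**Figure D5:**
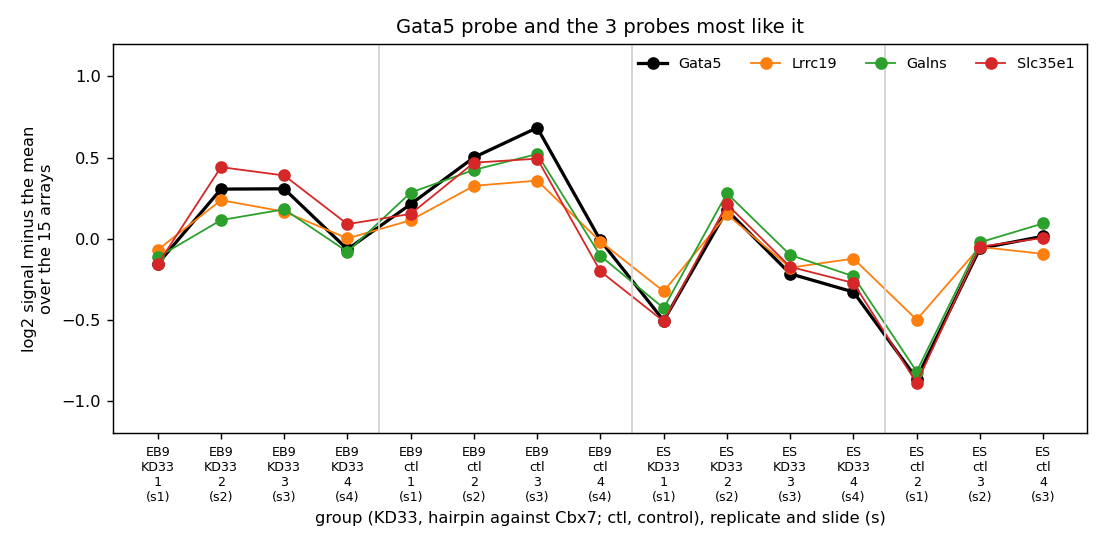
Relative log2 signal minus its mean over the 15 arrays for the Gata5 probe and the 3 probes most like it, by group, replicate and slide. All 4 lines are lowest in ES control 2 on slide 1 and move together from slide to slide within a group.

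Gata6 drives primitive endoderm and acts in heart. Its probe, A_51_P411917, lies on the plus strand of chromosome 18 (mm9, 11085039 to 11085097). Its relative signals were 4.28, 3.36, 3.77 and 3.98 in KD33 EB9, 3.70, 3.35, 3.48 and 3.56 in control EB9, −1.93, −1.87, −1.97 and −1.90 in KD33 ES cells, and −1.68, −1.74 and −1.77 in control ES cells. The gap between EB9 and ES cells was the widest of the 6 genes. Gata6 was 54.4-fold higher in EB9 under KD33 (log2 5.76, SE 0.15, adjusted p = 5.12e-13) and 38.1-fold in controls (log2 5.25, SE 0.16, adjusted p = 2.92e-12). In EB9 KD33 minus control was 0.32 (95% interval 0.00 to 0.64), which did not pass after adjustment (adjusted p = 0.172). The groups overlapped through KD33 EB9 2 alone. Without that array the difference was 0.48 and passed (adjusted p = 0.00890), and within slides 1 to 4 it was 0.58, 0.02, 0.28 and 0.41. In ES cells the groups did not overlap and the difference was −0.19 (95% interval −0.53 to 0.15, adjusted p = 0.388), which passed when only ES arrays were fitted (adjusted p = 0.0194). Within slides 1, 2 and 3 it was −0.25, −0.13 and −0.20. The difference between the EB9 and ES effects was 0.51 (SE 0.22, adjusted p = 0.0965), and 0.53 with the slide as a block (adjusted p = 0.0466).

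The 20 primitive and visceral endoderm genes linked to Gata4 and Gata6 mostly fell or did not pass the test of KD33 against control. In EB9 1 of 20 rose and 10 fell, where 7.64% of all probes rose and 6.49% fell, and in ES cells 1 rose and 10 fell, where 21.9% and 16.2% did, with medians of −0.37 and −0.27 against −0.01 and 0.05 for all probes. The falls shared 4 genes, Hnf4a, Cubn, Dab2 and Col4a1, which are 40% of the falls in each. Cubn, an endocytic receptor of visceral endoderm, fell by 1.28 (SE 0.30) in EB9 and by 1.33 (SE 0.33) in ES cells. In EB9 its partner Amn fell by 1.22 (SE 0.33), while Sparc, a matrix protein of parietal endoderm, rose by 0.22 (SE 0.06). Fitted on EB9 arrays alone, none of the 10 falls nor the rise passed, and the Amn and Sparc calls were each lost without any 1 of 6 EB9 arrays and that of Cubn without KD33 EB9 3 or 4. In ES cells Hnf4a, a liver and visceral endoderm factor, fell by 1.11 (SE 0.30), a call lost without ES control 3 or 4, and the coactivator Cited1 rose by 1.22 (SE 0.18). In EB9 relative to ES cells 18 were higher and 1 lower under KD33 (34.2% and 43.9% of all probes), and 19 and 1 in controls (33.7% and 41.2%), with Pdgfra at 6.52 and 5.51. The summed relative level was 178.5 to 196.8 in KD33 and 173.2 to 188.2 in control EB9, and 46.3 to 52.3 in KD33 and 63.8 to 68.4 in control ES cells.

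Of 16 cardiac genes linked to Gata4, Gata5 and Gata6, 1 rose and 1 fell under KD33 in EB9, where 7.64% of all probes rose and 6.49% fell, and 4 rose and 2 fell in ES cells, where 21.9% and 16.2% did. These shares lie near those of all probes, and the EB9 counts were 0 to 4 and 0 to 3 under the alternatives. In ES cells the risers included Nkx2-5, a partner of Gata4 in the heart (1.00, SE 0.12, adjusted p = 4.21e-05), and Hand2 (0.95, SE 0.12, adjusted p = 5.86e-05, and 0.39 with normexp). Nppb, a natriuretic peptide gene, fell by 0.74 (SE 0.22, and by 0.46 with normexp), a call lost without ES control 2 or 4. In EB9 the other natriuretic peptide gene, Nppa, rose by 1.29 (SE 0.33, adjusted p = 0.0221, and 0.76 with normexp), and the ventricular light chain gene Myl2 fell by 1.73 (SE 0.46, adjusted p = 0.0248), with 1 of 4 KD33 arrays well above background. With normexp the Myl2 difference was −0.48 (adjusted p = 0.0815). Both calls were lost when only EB9 arrays were fitted and without any 1 of 3 EB9 arrays each. Between EB9 and ES cells 12 of the 16 were higher and 3 lower under KD33 (34.2% and 43.9% of all probes), and 12 and 4 in controls (33.7% and 41.2%), with Hand2 at 7.53 and 8.62.

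A list of BMP and Nodal pathway genes held 11 that were measured, among them ligands, Id genes and T. Of these, 1 rose and 3 fell under KD33 in EB9, where 7.64% of all probes rose and 6.49% fell. In ES cells 2 rose and 1 fell, where 21.9% and 16.2% did, and 1 to 4 and 0 to 2 did under the alternatives. T, the mesoderm factor brachyury, fell by 2.79 in EB9 (SE 0.36, adjusted p = 0.000501), and the ligand Bmp7 by 0.42 (SE 0.08). The Nodal coreceptor Tdgf1 rose there by 0.45 (SE 0.11), a call lost with normexp background correction and without any 1 of 3 EB9 arrays. In ES cells Bmp2 rose by 0.60 (SE 0.11, adjusted p = 0.00105), Bmp7 rose by 0.29 (SE 0.09) and Nodal fell by 0.30 (SE 0.10). The Bmp7 and Nodal calls were each lost without any 1 of 4 ES arrays. Between EB9 and ES cells Bmp2 was higher by 4.78 under KD33 and 5.55 in controls.

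Genes most like each member over the 15 arrays were found by Pearson's r among 15531 other named genes, as a description of arrays that share 4 groups. For Gata1 they were Slc25a37 (r = 0.988), Trim10 (0.985) and P2ry1 (0.983). For Gata2 they were Hmgn5 (0.972), Nsmce2 (0.972) and Actr10 (0.967). Gata3 was followed most closely by Egln3, Rhob and Cdkn1b (0.997 each), Gata4 by Flnc, Kctd11 and Fign (0.999 each) and Gata6 by Gas1 (1.000), Hipk3 and Pkd2 (0.999 each). The values near 1 follow genes whose largest difference is that between EB9 and ES cells. The Gata2 pattern, low in control ES cells alone, was also that of Hmgn5, whose group means were 0.53 in KD33 EB9, 0.76 in control EB9, 0.66 in KD33 ES cells and −0.31 in control ES cells.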

How the data were processed

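Total RNA (500 ng, per the labels) was labelled with Cy3 and hybridised to Agilent 1-colour arrays. The deposited scanner output holds intensity values made with Feature Extraction 10.7.3.1, per the file headers, and the processed signal is background corrected and not scaled between arrays. The authors' deposited table holds log2 values, and how they were made is not stated in the labels or headers. Normexp (offset 50) and quantile normalisation of the scanner intensities came within 0.0153 of it.

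Here the log2 processed signal minus the 75th percentile of the array's non-control probes was used. Flagged spots were left out and repeated spots averaged. Of 39429 probes, 27253 were kept because they lay well above background on at least 3 arrays of a group. Differences were tested two-sided with limma 3.58.1 in R 4.3.3, with 4 group means fitted on all 15 arrays. Adjusted p is Benjamini-Hochberg over all kept probes, with a threshold of 0.05. SEs are limma's moderated errors of log2 differences, and SDs are over the arrays within a group. The procedure was tested on simulated data. The labels call the arrays biological replicates without naming separate cultures, so p-values measure the variation among these samples, and their number limits the precision.

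Members, gene lists and tests were chosen with earlier results of these data known. A listed gene is its brightest kept probe. From each list, in each comparison, up to 2 genes with the greatest called change in each direction were named, and for each member the 3 genes with the highest correlation. Alternatives were normexp and quantile normalisation, the authors' table, quantile normalisation of the processed signal, no filter, slide as a block, replicate number as a block, only the groups compared, and leaving out each array. Slide and replicate number coincide apart from the ES controls, whose numbers 2, 3 and 4 were hybridised to slides 1, 2 and 3. Arrays of different groups on 1 slide deviated together (median r = 0.41, 21 pairs), whereas ES controls and arrays of the same number did not (median r = −0.31, 9 pairs), so the numbers were not taken to pair the samples.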

Additional observations from a re-analysis of the deposited data

Results flagged for a closer look

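Gata2, Gata3 and Gata4 were flagged because the effect of KD33 differed between EB9 and ES cells by a test of the difference itself. These are 3 of 6 members, where 28.9% of all probes passed that test. The EB9 effect minus the ES effect was −1.87 for Gata2, 0.62 for Gata3 and −0.86 for Gata4 on the log2 scale. The Gata3 call was lost with normexp and with the authors' table. Gata2 was lower under KD33 in 4 of 4 slides in EB9 and higher in 3 of 3 in ES cells. Gata4 was also marked because KD33 ES cells 4, at −2.82, lay apart from the other KD33 ES arrays, at −2.75 to −2.74. The gap was 0.874 of the group's range, where chance marks about 1 group in 20. The 6 genes have 4 groups each and only this group was marked, so the mark is near what chance gives.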

How the results depend on the processing

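Gata2 and Gata4 kept their calls in ES cells, and Gata2 its call in EB9, under all alternatives run. The number of members called in ES cells went to 5 with only the ES groups fitted, when Gata1 (−0.54) and Gata6 (−0.19) passed. The Gata3 fall in ES cells did not pass with normexp (−0.28, adjusted p = 0.229), the authors' table (−0.28, adjusted p = 0.231), no filter (−0.37, adjusted p = 0.0658) or the replicate number as a block (−0.32, adjusted p = 0.0514), nor without 9 of the 15 arrays in turn (−0.37 to −0.31, where all 15 omissions ranged from −0.45 to −0.31). Gata5 in ES cells turned to −0.05 without KD33 replicate 2 and to −0.20 without control replicate 2 (range −0.20 to 0.24). In EB9, 1 member was called, and 2 with the slide as a block (Gata3, 0.25) and without KD33 replicate 2 (Gata6, range 0.18 to 0.48). EB9 against ES cells, Gata5 missed in controls with only those groups fitted (0.65, adjusted p = 0.0618) or in 3 omissions (0.37 to 0.60, where all omissions ranged from 0.37 to 0.81), and passed under KD33 with the slide block (0.32). Gata2 passed under KD33 without KD33 EB9 2 (−0.20 to −0.080). For the EB9 effect minus the ES effect, Gata3 missed with normexp (0.52) and the authors' table (0.51) and without ES control 4 (0.57, where all omissions ranged from 0.56 to 0.72), and Gata6 passed with the slide (0.53) and with the replicate block (0.58). Without KD33 EB9 2, Gata1 (0.55 to 1.01) and Gata6 (0.37 to 0.67) passed too, so 5 members were called (2 to 5). All probes called for that difference numbered 8433 of 27253 without KD33 EB9 2, against 7867 with all arrays (6527 to 8433 over the omissions). The replicate block changed no other member's call. The causes were not tested. All probes called in EB9 numbered 3851, and 6934 with the slide block, 1263 with only EB9 fitted, and 2096 to 5448 without single arrays. The same count in ES cells was 10373, and 12815 with the slide block, 11896 with only ES cells fitted, and 8196 to 10930 without single arrays.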
